A study of Mus musculus with 6 samples.

Results

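The 10 genes described here carry or damp signalling by transforming growth factor beta (TGF-beta) and bone morphogenetic proteins (BMPs) in mouse intestinal organoids. They were taken as a fixed list by gene name, and all 10 were among the 31319 genes counted. The ligand was Tgfb2. The receptors were Tgfbr1, Tgfbr2, Bmpr1a and Bmpr2. Smad3 carries the TGF-beta signal to the nucleus, Smad6 and Smad7 are inhibitors of TGF-beta and BMP signalling (Smad6 mainly of the latter), and Id1 and Id3 are transcriptional targets of BMP signalling.

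RNA was counted in single nuclei of organoids grown from crypts of the jejunum of C57BL/6 mice aged 8 to 12 weeks. Organoids in Matrigel were given an organoid growth medium mixed with concentrated conditioned medium of mouse embryonic fibroblasts. QCM came from fibroblasts made quiescent in low serum and SCM from senescent fibroblasts, and the study used X-rays or doxorubicin to induce senescence without its labels saying which was used for these samples. There were 3 samples per medium, and the labels do not say whether these came from separate mice, so p-values measure the spread between these samples. The organoids hold epithelium only, without the stroma that makes many TGF-beta and BMP ligands in the intestine.

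TGF-beta and BMP ligands bind pairs of type I and type II serine/threonine kinase receptors, which phosphorylate Smad2 and Smad3 (TGF-beta branch) or Smad1, Smad5 and Smad9 (BMP branch). These join Smad4 and enter the nucleus. In the intestine, BMP signalling rises from crypt to villus and restrains stem cells, and TGF-beta signalling limits epithelial growth. Inhibitory Smads and the Id genes are induced by the pathway itself. Smad complexes bind the palindrome GTCTAGAC and GC-rich motifs such as GGCGCC.

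Promoters of 8 of the 10 members were in the RefSeq table used here (GRCm38.p6, 250 bases before to 50 after a gene's start), and these letters were searched in them (both motifs read the same on either strand). Those of Smad7 and Id1 were not in that table and were not searched. Of the 8, the promoter of Smad6 alone held the palindrome, starting at position -4 from the gene's start. The palindrome was in 0.213% of all 32851 promoters of the same length. GGCGCC was found in those of Bmpr1a, Bmpr2 and Tgfbr1, at -198, -105 and -233, and in 11.9% of all promoters. The starts of Bmpr1a and Bmpr2 in that table lie inside the spans that GENCODE gives these genes, with 141 and 250 of the 250 upstream bases in annotated exons, whereas those of Smad6 and of the matching Tgfbr1 promoter have 0. Among promoters without a match, the start of Id3 also lies inside its span, with 250 upstream bases in annotated exons. Tgfb2 has 167 such bases. The stretches with a match are shown 5′ to 3′ on the gene's strand, with the motif in capitals.
Smad6, chr9:64022046-64022073, minus strand: ccgccaaagtGTCTAGACtggcatatga
Bmpr1a, chr14:34502729-34502754, minus strand: cgcgcgcgccGGCGCCtcttgctcgc
Bmpr2, chr1:59764164-59764189, plus strand: ccggcggccgGGCGCCgctgcctgcc
Tgfbr1, chr4:47352979-47353004, plus strand: ctggagtaaaGGCGCCcagcggtgag
The upstream part of the Tgfbr2 promoter is shown because Tgfbr2 was the member whose samples did not overlap between the media, and it held neither motif.
Tgfbr2, chr9:116175364-116175613, minus strand: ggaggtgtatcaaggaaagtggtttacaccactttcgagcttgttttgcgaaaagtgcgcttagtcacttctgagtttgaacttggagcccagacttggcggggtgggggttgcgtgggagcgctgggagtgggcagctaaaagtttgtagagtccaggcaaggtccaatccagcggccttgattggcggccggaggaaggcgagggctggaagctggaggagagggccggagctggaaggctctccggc

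Values are counts of unique molecular identifiers (UMIs, 1 per captured RNA molecule) scaled to the UMI total of the sample or cluster (CPM). CPM is not scaled to gene length, so a gene's level is compared here between samples and clusters and not with that of another gene. The files held 38154 nuclei and 4071926 to 41035733 UMIs per sample. The epithelial markers Epcam, Cdh1, Krt8, Krt18, Cdx2 and Vil1 summed to 2319 to 3374 CPM in each sample. The 8 fibroblast, 5 immune and 5 endothelial markers measured summed to at most 6.37, 2.66 and 10.6 CPM. Replicate 1 of both media stood apart. SCM replicate 1 had 430 nuclei, and 175 of their barcodes (40.7%, with 49.9% of its UMIs) were also in QCM replicate 1, against at most 0.358% of the smaller sample in any other pair. Only 40 of these 175 barcodes lay in the same cluster in both samples. QCM replicate 1 had a median of 8260 UMIs per nucleus against 1578 to 3156.5 elsewhere, 14% of its UMIs in 80 ribosomal protein genes against 2.55% to 10.2%, and genes spanning at least 100 kb lay a median of 0.61 (log2) lower in it than in QCM replicates 2 and 3. Each comparison between media was therefore also made with replicates 2 and 3 alone and with the shared barcodes removed.

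Over all nuclei, none of the 10 members passed the test between SCM and QCM. In such sums, fewer cells of a type and less RNA per cell cannot be told apart. All 10 passed the filter on low counts, and edgeR's quasi-likelihood test called 0 of 10 at an adjusted p of 0.05, as it called 0% of the 19046 genes tested (866 genes, 4.55%, had an unadjusted p under 0.05, none of them a member). DESeq2 called 0.105% of all genes and voom with limma called 0, and neither called a member. Id3, however, had an unadjusted p under 0.05 and was lower in SCM under both, as were 4.92% and 1.49% of all genes. The estimates were above 0 for 8 members, the ligand, the 4 receptors and the 3 Smads, and below 0 for Id1 and Id3. Of all genes tested, 48.6% had an estimate above 0. When the ribosomal protein share was a covariate, however, the estimates of 4 members were above 0, against 48.1% of all genes, and those of Tgfb2, Bmpr1a, Smad3 and Smad7 lay below 0. With the shared barcodes removed, 8 estimates were above 0, 0 members were called and the estimates ran from -1.17 (Id3) to 0.46 (Smad6). The median log2 ratio was 0.26 over the members and -0.01 over all genes, and scaling to library size alone raised the latter to 0.14 while 8 members had estimates above 0. Gene span moved with these ratios. The 8 members with estimates above 0 span 28.4 to 116 kb, and Id1 and Id3 span 1.16 and 2.26 kb. Over all genes, the median difference of SCM from QCM in log2(CPM + 1) was 0.28 for spans of at least 100 kb, 0.15 for 10 to 100 kb and 0.01 below 10 kb. With replicates 2 and 3 alone these medians were 0.06, 0.04 and -0.07. The part of gene span and of the ribosomal protein share in the members' levels was not tested.

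**Figure D1:**
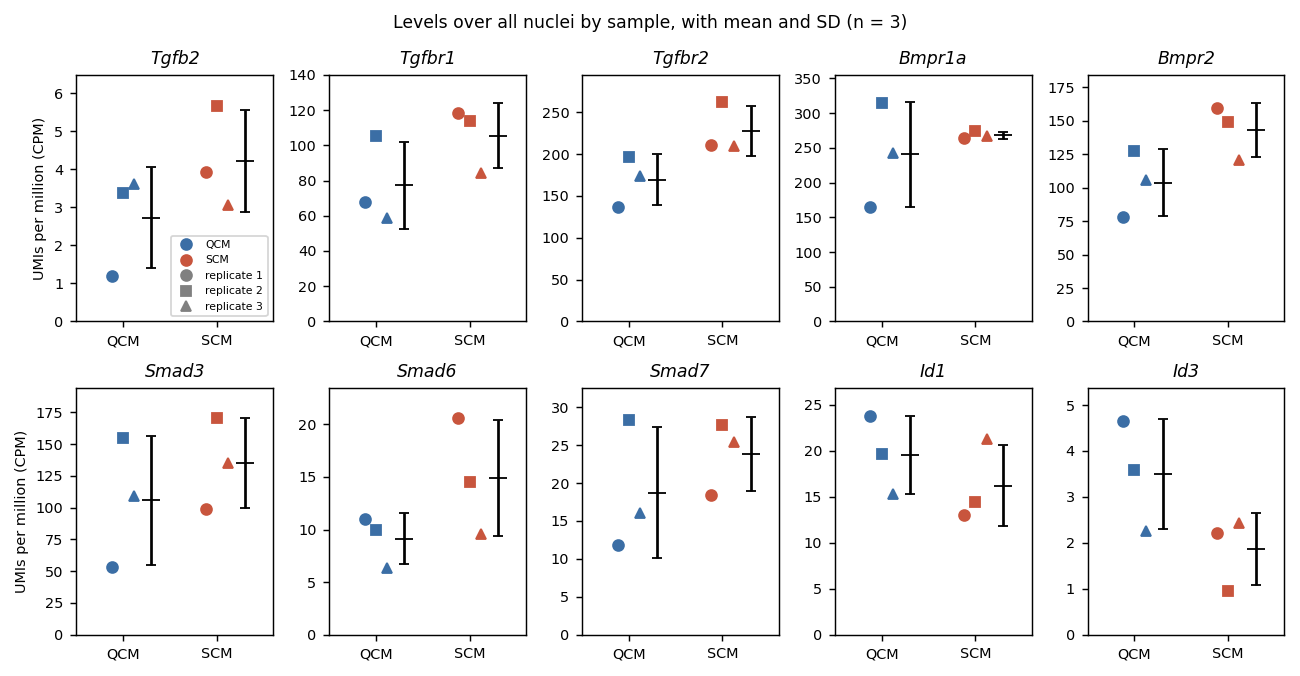
Each panel plots the CPM of 1 gene over all nuclei of a sample (circles, squares and triangles are replicates 1, 2 and 3), with the mean and SD of each medium in black. The 3 SCM samples of Tgfbr2 lie above the 3 QCM samples, and in the other 9 panels the media overlap.

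The type II receptor Tgfbr2 binds TGF-beta directly and recruits Tgfbr1, the type I receptor. Tgfbr2 (chr9:116084293-116175360) was at 137, 197 and 174 CPM in QCM replicates 1 to 3 and at 211, 262 and 209 CPM in the SCM replicates. Its lowest SCM sample thus lay above its highest QCM sample, as for 4.99% of all genes tested (2.09% did not overlap in the other direction). The log2 ratio was 0.28 (SE 0.17, 95% interval -0.13 to 0.68, edgeR adjusted p = 0.929), 0.30 with replicates 2 and 3 alone and 0.17 without SCM replicate 2. Tgfbr1 (chr4:47353222-47414931) was at 68.1, 105 and 58.6 CPM in QCM and 118, 114 and 84.1 CPM in SCM. SCM replicate 3 lay below QCM replicate 2, and the log2 ratio was 0.29 (SE 0.23, 95% interval -0.23 to 0.81), with values from 0.098 without QCM replicate 3 to 0.47 without QCM replicate 2.

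Bmpr2 is a type II receptor of BMPs and Bmpr1a the main type I BMP receptor of the intestinal epithelium. Bmpr2 (chr1:59763400-59879014) was at 77.7, 127 and 106 CPM in QCM and at 160, 149 and 121 CPM in SCM. The groups overlapped by 1 sample, SCM replicate 3 against QCM replicate 2. The log2 ratio was 0.32 (SE 0.17, 95% interval -0.08 to 0.73, edgeR adjusted p = 0.927) and 0.17 with replicates 2 and 3 alone. Over all alternatives it ran from 0.11 to 0.47. Bmpr1a (chr14:34410734-34503341) was at 165, 315 and 242 CPM in QCM, and its SCM samples, at 264, 274 and 267 CPM, lay inside that range. Its log2 ratio of 0.03 (SE 0.20, 95% interval -0.44 to 0.49) was -0.08 with replicates 2 and 3 alone. The genes Gm17110 (opposite strand, 175 UMIs) and Gm38125 (same strand, 355 UMIs) overlap Bmpr1a and Bmpr2, which had 33148 and 15376 UMIs, and whether counting used the strand is not given in the sources used here.

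Among the Smads, the order of the samples differed from gene to gene. Smad3 (chr9:63646767-63757994) was at 53.4, 155 and 109 CPM in QCM and at 99.2, 171 and 135 CPM in SCM, with a log2 ratio of 0.25 (SE 0.33) that ran from 0.0054 without QCM replicate 1 to 0.55 without QCM replicate 2. The QCM samples of Smad3 differed from each other by more than the 2 means, which were 106 ± 50.8 and 135 ± 35.7 CPM (SD, n = 3). QCM replicate 1, with the lowest level of Smad3, Tgfbr2, Bmpr1a, Bmpr2, Smad7 and Tgfb2 among the 6 samples, was also the sample with the highest ribosomal protein share, and with that share as a covariate the Smad3 estimate was -0.19.

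Smad6 (chr9:63953076-64022059), which mainly inhibits the BMP branch, was at 11.0, 9.97 and 6.37 CPM in QCM and at 20.6, 14.5 and 9.59 CPM in SCM. SCM replicates 1 and 2 lay above every QCM sample and SCM replicate 3 lay below 2 of them. The log2 ratio was 0.49 (SE 0.35, 95% interval -0.33 to 1.30, edgeR adjusted p = 0.929). It was 0.52 with replicates 2 and 3 alone, 0.22 without SCM replicate 1, 0.24 without QCM replicate 3 and 0.79 without QCM replicate 1. Smad7, the inhibitor of both branches that competes at the type I receptor, was at 11.8, 28.4 and 16.1 CPM in QCM and at 18.4, 27.7 and 25.4 CPM in SCM. The groups overlapped, with a log2 ratio of 0.24 (SE 0.29) that ran from 0.086 without QCM replicate 1 to 0.57 without QCM replicate 2.

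Tgfb2 and Id3 were the members with the fewest UMIs, 419 and 417 over all samples. Tgfb2 (chr1:186622792-186705989) was at 1.19, 3.38 and 3.61 CPM in QCM and at 3.93, 5.68 and 3.06 CPM in SCM. SCM replicate 3 was below QCM replicates 2 and 3, and the interval of the log2 ratio of 0.52 (SE 0.44) ran from -0.49 to 1.54. It was 0.23 without QCM replicate 1, 0.24 without SCM replicate 2 and, with deposited clusters weighted equally, -0.15.

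The Id proteins bind basic helix-loop-helix factors and block their binding to DNA. Id3 (chr4:136143497-136145755) was at 4.65, 3.58 and 2.26 CPM in QCM and at 2.21, 0.962 and 2.43 CPM in SCM, from 9 UMIs in SCM replicate 1 and 20 in SCM replicate 2. QCM replicate 3 lay below SCM replicate 3. The log2 ratio was -1.12 (SE 0.51, 95% interval -2.30 to 0.06, edgeR unadjusted p = 0.0605 and adjusted p = 0.927), the largest ratio in size among the members, and was -0.79 with replicates 2 and 3 alone and -0.69 without QCM replicate 1. Over all alternatives it ran from -1.51 to -0.54. Id1 (chr2:152736251-152737410) was at 23.8, 19.6 and 15.3 CPM in QCM and at 13.0, 14.4 and 21.2 CPM in SCM. SCM replicates 1 and 2 lay below the QCM samples and SCM replicate 3 above 2 of them, and the log2 ratio of -0.44 (SE 0.31) was 0.01 with replicates 2 and 3 alone and -0.12 when QCM replicate 1 was left out.

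Next, the members were set among a list of 74 pathway genes, of which 70 were measured and 59 passed the filter. None of the 59 was called by edgeR. Of the 49 that were not members, 7 had an unadjusted p under 0.05, all higher in SCM (14.3%, against 1.46% of all genes higher and 3.08% lower at that p), and the samples of 9 did not overlap and were higher in SCM (18.4%, against 4.99% of all genes higher and 2.09% lower without overlap). The median log2 ratio of the 49 was 0.07. Over the whole list, the 7 genes at that p became 3 with the ribosomal protein covariate (Itgb8, Pmepa1 and Skil), 3 without SCM replicate 2 (Itgb8, Pmepa1 and Thbs1) and 4 without the 6% of nuclei with the most UMIs (Itgb6, Pmepa1, Skil and Thbs1). All of these were higher in SCM, and the share of all genes higher in SCM at that p fell as well, from 1.46% to 0.551%, 0.523% and 0.582%. The count rose to 9 with library size alone, with the replicate number as a block, without QCM replicate 2 and without SCM replicate 1. The share of all genes was then 1.94%, 1.82%, 3.08% and 1.33%. The 7 genes were Tgfb1, the regulators Pmepa1 and Skil, the activators Thbs1, Itgb6 and Itgb8, and the target Ccn2, and the other two without overlap were Bmp8b and Smad5. The list had been written with earlier results of these data known, and the same 6 samples lie behind every gene.

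**Figure D2:**
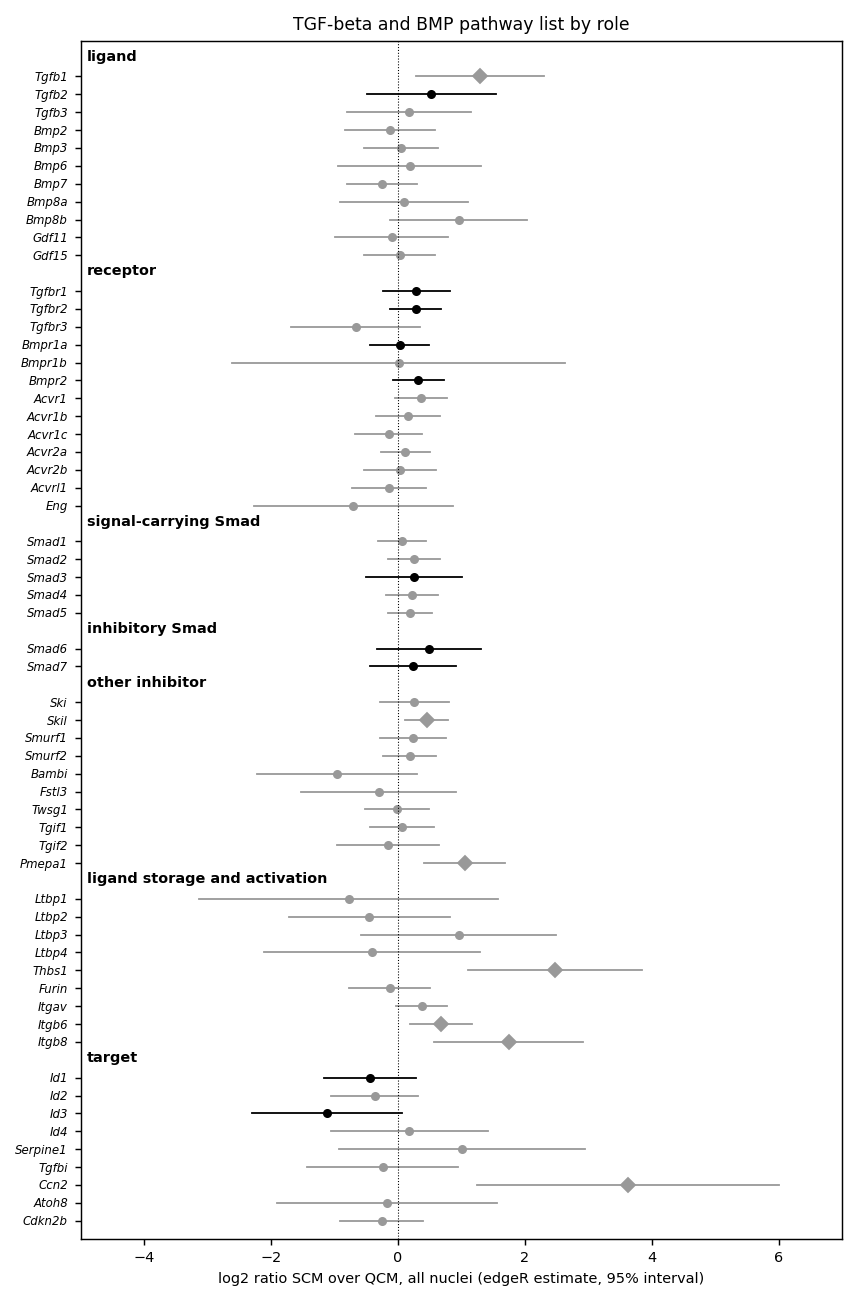
Points are edgeR log2 ratios of SCM over QCM over all nuclei with 95% intervals for the 59 tested genes of the pathway list, grouped by role. Members are black, other genes grey, and diamonds mark the 7 genes with an unadjusted p under 0.05. The intervals of the 10 members include 0, and Thbs1, Pmepa1, Skil, Itgb6, Itgb8, Tgfb1 and Ccn2 lie to the right of it.

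Among the inhibitors outside the Smads, Pmepa1 and Skil separated the media. Pmepa1, which TGF-beta induces and which holds back Smad2 and Smad3, was at 50.1, 48.2 and 41.0 CPM in QCM and at 143, 118 and 68.5 CPM in SCM. Its log2 ratio was 1.05 (SE 0.27, edgeR unadjusted p = 0.00522 and adjusted p = 0.927), and it was 1.01 with replicates 2 and 3 alone, 0.97 without the shared barcodes and 0.61 without the 6% of nuclei with the most UMIs. Skil, a co-repressor of Smads, was at 28.9, 33.4 and 33.9 CPM in QCM and at 50.3, 48.9 and 48.1 CPM in SCM. The SCM samples of Skil lay close to each other and above all QCM samples, with a log2 ratio of 0.45 (SE 0.15, edgeR unadjusted p = 0.0152). Smurf2, a ubiquitin ligase of the pathway with the most UMIs in this role, had a log2 ratio of 0.18 (SE 0.18). Of the 10 tested genes in this role, the estimates of 6 were above 0, and Bambi was at -0.96 (SE 0.55).

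Latent TGF-beta is released by integrins and by thrombospondin-1. Thbs1, which encodes the latter, was at 4.12, 3.38 and 5.72 CPM in QCM and at 12.0, 55.3 and 14.9 CPM in SCM. It was the pathway gene that DESeq2 called (log2 ratio 2.47, DESeq2 adjusted p = 0.0121), whereas edgeR gave 2.47 (SE 0.59, adjusted p = 0.927), and without SCM replicate 2 its edgeR ratio was 1.47. Itgb6, the integrin subunit of epithelia that activates latent TGF-beta, was at 47.1, 70.8 and 56.8 CPM in QCM and at 96.5, 135 and 78.6 CPM in SCM, with a log2 ratio of 0.68 (SE 0.21, edgeR unadjusted p = 0.0137) that was 0.44 without SCM replicate 2. Itgb8, a second such subunit, had 0.906 to 1.68 CPM in QCM and 2.61 to 8.10 CPM in SCM. All 3 separated the media without overlap. Of the 9 tested genes of ligand storage and activation, the estimates of 5 were above 0.

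The ligand Tgfb1 was at 0.731, 1.07 and 1.76 CPM in QCM and at 2.46, 4.28 and 2.69 CPM in SCM, with a log2 ratio of 1.29 (SE 0.44, edgeR unadjusted p = 0.0186) that was 0.80 without the 6% of nuclei with the most UMIs. Bmp3, the ligand with the most UMIs, had a ratio of 0.05 (SE 0.25). Ccn2, a matrix-associated target of TGF-beta and YAP, had 14 UMIs in the 3 QCM samples together and 143 in the SCM samples, 122 of the latter in SCM replicate 2. Cdkn2b, the TGF-beta target with the most UMIs outside the members, stood at 10.7 ± 2.17 CPM in QCM and 10.2 ± 1.00 CPM in SCM (SD, n = 3). Of the 9 tested targets, members included, the estimates of 3 were above 0, with a median log2 ratio of -0.24. Among the receptors and Smads outside the members, Acvr2a and Smad4 had the most UMIs, with ratios of 0.11 (SE 0.17) and 0.22 (SE 0.18). Markers of the fetal state of the epithelium (8 genes, among them Clu, Anxa1 and Ly6a) summed to 47.8 to 98 CPM in QCM and 162 to 597 CPM in SCM. Lists of 4 mature cell types lay lower in SCM with overlap, with sums of 571 to 1919 CPM against 1298 to 5235 CPM in QCM for enterocytes, 335 to 582 against 518 to 2634 CPM for Paneth cells, 384 to 649 against 634 to 1329 CPM for goblet cells and 103 to 240 against 230 to 421 CPM for enteroendocrine cells. The tuft list, at 28.6 to 36.1 CPM in SCM, lay inside its QCM range of 24.9 to 46.9 CPM. The stem list, at 2529 to 3952 CPM in SCM, overlapped its QCM range of 1886 to 3520 CPM. The part of these cell types in the ratios of the members and the other pathway genes was not tested.

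The deposited annotation places the nuclei in 15 numbered clusters. Levels in a cluster were compared over clusters 0 to 8, which held at least 10 nuclei in all 6 samples. These comparisons carry no test, since the clusters were made from the expression of the same nuclei. By fixed marker lists, cluster 8 was enterocyte-like (6 of 9 markers at 2 times the level of the remaining nuclei or more, and at 5 CPM or more) and cluster 7 fetal-like (5 of 8). Cluster 6 was goblet-like and Paneth-like (6 of 7 goblet and 3 of 7 Paneth markers). Among the smaller clusters, 9 and 10 were enteroendocrine-like (9 and 6 of 9) and 11 tuft-like (5 of 7). Cluster 1 had 6 enterocyte, 3 Paneth and 2 goblet markers past that limit and stays unnamed.

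**Figure D3:**
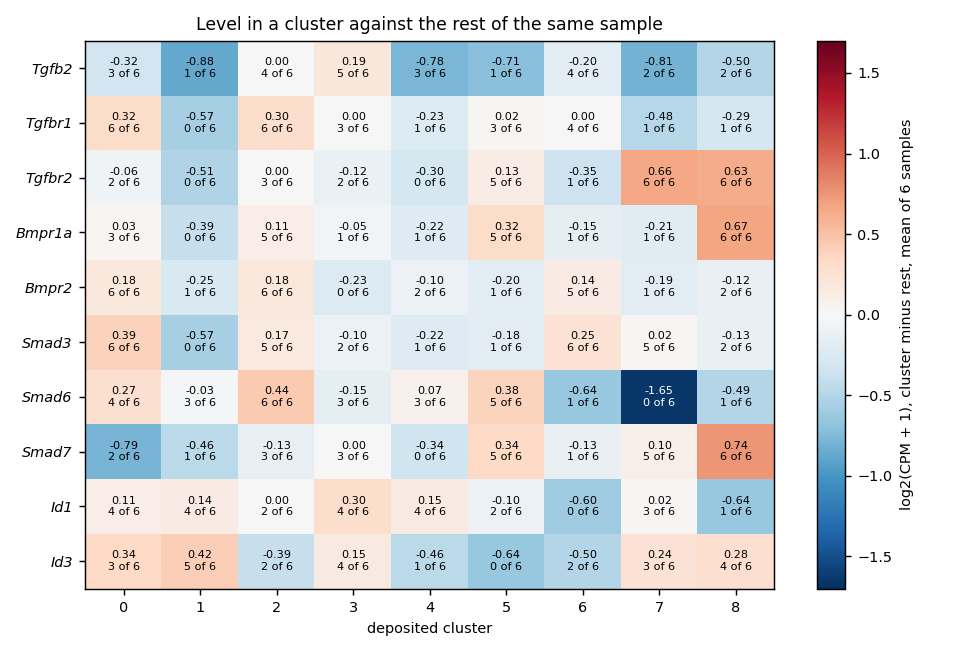
Each cell gives the log2(CPM + 1) of a member in a cluster minus that in the remaining nuclei of the same sample, as the mean of the 6 samples, and in how many of 6 samples the difference was above 0. Tgfbr2 stands out in clusters 7 and 8, Bmpr1a and Smad7 in cluster 8, and Smad6 is lowest in cluster 7.

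Tgfbr2 was highest in the fetal-like and the enterocyte-like cluster. In cluster 7 it was at 185, 309 and 289 CPM in QCM and at 286, 433 and 328 CPM in SCM, and in cluster 8 at 222, 299 and 271 CPM in QCM and at 365, 326 and 301 CPM in SCM. The means of 305 ± 79.7 and 297 ± 48.4 CPM (SD, n = 6) did not differ beyond their spread, and both clusters exceeded the rest of the same sample in 6 of 6 samples, by 0.66 ± 0.18 and 0.63 ± 0.17 on the log2(CPM + 1) scale. Cluster 5 followed with 222 ± 72.4 CPM, and cluster 1 was lowest with 149 ± 39.5 CPM. The other TGF-beta receptor had another order. Tgfbr1 was above the rest of the sample in 6 of 6 samples in clusters 0 and 2, at 113 ± 44.6 and 108 ± 28.9 CPM, and below it in 5 of 6 in clusters 7 and 8.

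Bmpr1a and Smad7 shared cluster 8 as their highest of the 9. Bmpr1a was at 258, 457 and 373 CPM there in QCM and at 439, 440 and 394 CPM in SCM, above the rest of each sample by 0.67 ± 0.08. The next cluster, 5, had 316 ± 82.1 CPM against 393 ± 73.6 CPM in cluster 8, and the ranges of the samples overlapped. Smad7 in cluster 8 was at 23.1, 44.6 and 21.3 CPM in QCM and at 33.1, 48.7 and 41.0 CPM in SCM. It exceeded the rest of the sample in 6 of 6 samples, by 0.74 ± 0.20, though the SCM replicate 1 value rests on 4 UMIs in 11 nuclei. Bmpr1a and Smad7 kept cluster 8 as their highest cluster in 10 and 9 of 10 other ways of setting the levels. Cluster 1, which also had 6 enterocyte markers past the limit, was the lowest of the 9 for both genes. Bmpr1a was at 207 ± 56.8 CPM and Smad7 at 17.0 ± 8.85 CPM in cluster 1.

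Smad6 was the member with the widest spread over clusters 0 to 8 (4.49-fold between the highest and the lowest mean). It was lowest in the fetal-like cluster 7, with 8, 5 and 3 UMIs in the QCM and 0, 9 and 8 UMIs in the SCM samples, a mean of 3.86 ± 2.48 CPM, and it lay below the rest of the sample in 6 of 6 samples. In cluster 2 it was above the rest in 6 of 6 samples, at 15.8 ± 6.90 CPM. Its highest mean, 17.3 ± 11.9 CPM in cluster 5, included an SCM sample at 39.0 CPM. Cluster 2 was highest instead with 30 nuclei as the minimum, with all samples summed and without SCM replicate 1. The remaining members varied less or were too sparse to rank. Bmpr2 ranged from 106 to 137 CPM and Smad3 from 89.7 to 149 CPM over the 9 clusters. Smad3 was above the rest of the sample in 6 of 6 samples in clusters 0 and 6 and below it in 6 of 6 in cluster 1. Id1 ranged from 12.1 to 22.3 CPM and was below the rest in 6 of 6 samples in the goblet-like and Paneth-like cluster 6. The means of Id3 and Tgfb2 were at most 5.09 and 4.85 CPM in the 9 clusters, that of Id3 through 18 CPM from 2 UMIs of SCM replicate 1 in cluster 0, and neighbouring clusters in their order differed by less than their SD.

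**Figure D4:**
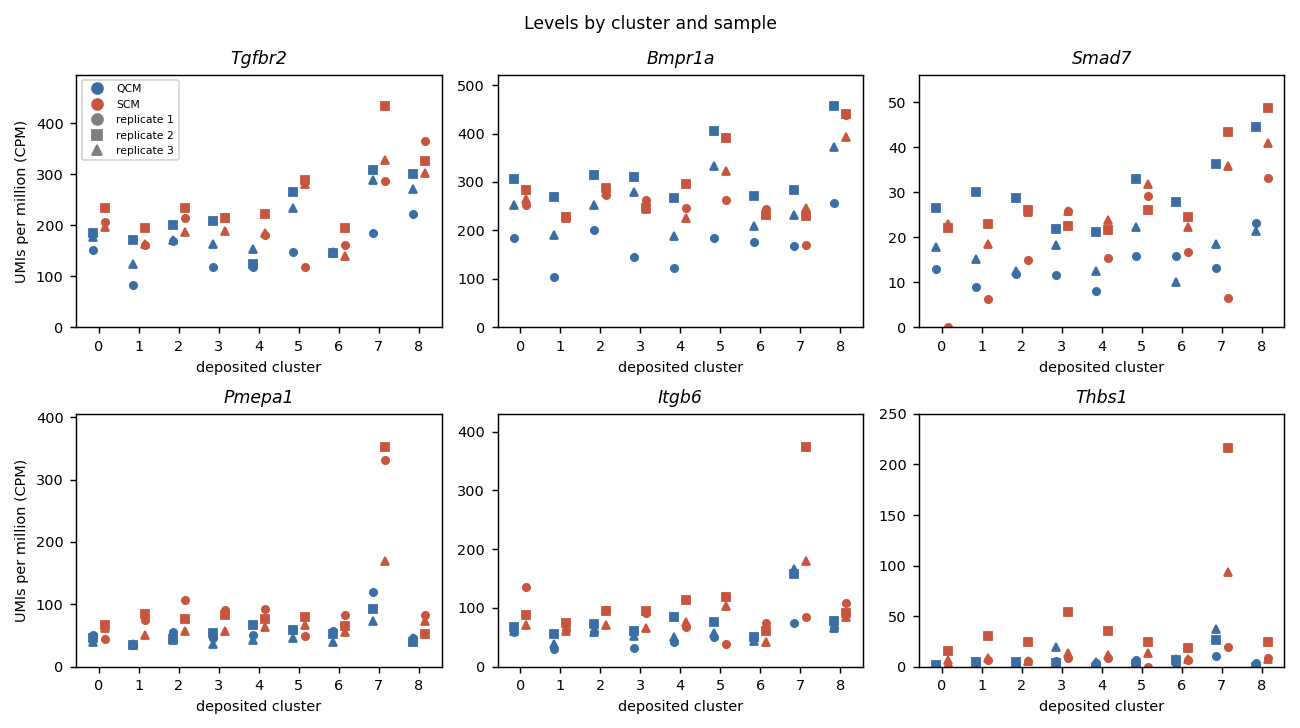
CPM by cluster and sample for 3 members (upper row) and 3 other pathway genes (lower row), with QCM blue, SCM red and replicates 1, 2 and 3 as circles, squares and triangles. Tgfbr2 is raised in clusters 7 and 8, and Pmepa1, Itgb6 and Thbs1 have their highest means in cluster 7.

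Outside the members, levels by cluster were taken for Pmepa1, Skil, Thbs1, Itgb6, Itgb8 and Tgfb1 alone. These were picked from the 7 pathway genes with an unadjusted p under 0.05, all higher in SCM. Each had its highest mean of the 9 clusters in cluster 7. Ccn2 and the other pathway genes were not compared by cluster, and how many of all genes peak in cluster 7 was not tested. Without SCM replicate 2, Tgfb1 averaged 3.27 ± 2.43 CPM in cluster 7 and 2.82 ± 2.59 CPM in cluster 6. Pmepa1 averaged 190 ± 123 CPM in cluster 7 and 51.7 to 64.9 CPM in clusters 0 to 6 and 8. Itgb6 averaged 173 ± 108 CPM in cluster 7, Thbs1 67.1 ± 78.9 CPM (37.2 ± 32.8 CPM without SCM replicate 2, which was at 217 CPM) and Skil 53.0 ± 15.5 CPM, the last close to the 52.5 ± 16.8 CPM of cluster 8. Cluster 7 held 145, 216 and 336 of the 3791, 7930 and 10144 nuclei of the QCM samples. It held 17, 204 and 524 of the 430, 5026 and 10833 nuclei of the SCM samples. Of the 2449 UMIs of Pmepa1 in SCM replicate 2, 1200 lay in cluster 7. In the nuclei outside cluster 7, Pmepa1 was at 47.6, 46.9 and 39.7 CPM in QCM and at 135, 71.8 and 59.9 CPM in SCM. The part of cluster 7 in the ratios over all nuclei was not tested.

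Finally, SCM and QCM were compared within 13 clusters, 9 of them with 6 samples and 4 with 5. Members could be fitted in 96 pairs of gene and cluster, and edgeR called 0 of them, as it called 0% of all 130109 pairs of gene and cluster. Of the 96, 2 had an unadjusted p under 0.05, against 5.76% of all pairs. Their estimates were above 0 in 73 of 96, against 49.3% of all pairs, which hold genes of all spans. The part of gene span and of the ribosomal protein share in this count was not tested. In the clusters with all 6 samples, 8 of 74 pairs did not overlap and were higher in SCM (10.8%, against 5.95% of all pairs), and 0 were lower (4.09%). Clusters are parts of the same 6 samples and are not replicates of each other.

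**Figure D5:**
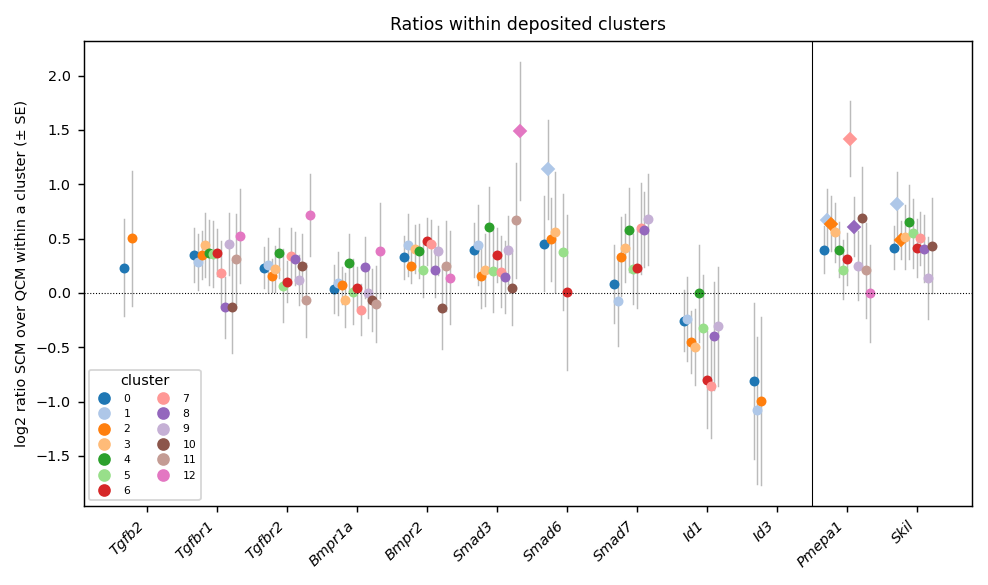
Log2 ratios of SCM over QCM within each fitted cluster (coloured by cluster, ± SE) for the 10 members and, right of the line, Pmepa1 and Skil. Diamonds mark an unadjusted p under 0.05, which Smad3 in cluster 12, Smad6 in cluster 1, Pmepa1 in 4 clusters and Skil in 2 reach. All fitted Id1 and Id3 estimates lie below 0 and all Smad3 and Smad6 estimates above it, though mean CPM runs the other way for Id1 in cluster 4 and Id3 in cluster 0.

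The fitted estimates weigh samples by their depth and use edgeR's TMM scaling, whereas CPM is scaled to UMI totals alone. Over all nuclei, 64.1% of all genes had an estimate above 0 with library size alone, against 48.6% with TMM. In 11 of the 96 pairs the mean CPM of the samples differed in the other direction, and the cause was not tested. Estimates were above 0 in 13 of 13 clusters for Smad3, 12 of 13 for Tgfbr2 and for Bmpr2, 11 of 13 for Tgfbr1, 9 of 10 for Smad7, 6 of 6 for Smad6 and 2 of 2 for Tgfb2. Bmpr1a was above 0 in 8 of 13. Id1 was above 0 in 0 of 10 clusters, from -0.85 in cluster 7 to -0.0031 in cluster 4, and Id3 in 0 of 3. The 11 pairs were 4 of Bmpr1a and 1 each of Tgfb2, Tgfbr1, Tgfbr2, Bmpr2, Smad7, Id1 and Id3. In cluster 0, where SCM replicate 1 had 0 UMIs of Tgfb2 and of Smad7 and 2 of Id3, mean CPM was lower in SCM for Tgfb2 (2.66 against 3.16) and Smad7 (15.1 against 19.1) and higher for Id3 (6.98 against 3.19). In cluster 7, Id1 was at 45.8, 14.5 and 18.4 CPM in QCM and at 6.51, 17.9 and 19.3 CPM in SCM, with 1 UMI in SCM replicate 1. The media differed there through replicate 1, and the log2 ratio was 0.087 with replicates 2 and 3 alone.

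The members' smallest p-values were spread over 7 clusters. Smad6 in cluster 1 was at 6.88, 7.94 and 4.60 CPM in QCM and at 37.1, 17.1 and 11.9 CPM in SCM, from 97, 18 and 16 UMIs and 6, 32 and 49 UMIs. The media did not overlap, and the log2 ratio was 1.14 (SE 0.46, edgeR unadjusted p = 0.0326 and adjusted p = 0.813), 1.11 with replicates 2 and 3 alone and 0.98 without the shared barcodes. Smad3 in cluster 12 was at 21.0, 147 and 18.5 CPM in QCM, from 6, 20 and 2 UMIs, and at 200 and 168 CPM in SCM replicates 2 and 3. SCM replicate 1 had 1 nucleus of that cluster and did not enter. The log2 ratio was 1.49 (SE 0.63, edgeR unadjusted p = 0.0388), and it ran from 1.02 without QCM replicate 1 to 2.76 without QCM replicate 2.

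Bmpr2 came next, in the goblet-like and Paneth-like cluster 6, at 89.9, 131 and 107 CPM in QCM and 214, 147 and 129 CPM in SCM (log2 ratio 0.47, SE 0.22). Tgfbr2 had its smallest p in cluster 12 (0.72, SE 0.38), Tgfbr1 in cluster 6 (0.37, SE 0.22), Bmpr1a in cluster 4 (0.28, SE 0.26) and Smad7 in cluster 8 (0.58, SE 0.35). Tgfb2 had it in cluster 2 (0.50, SE 0.62), Id3 in cluster 1 (-1.08, SE 0.68) and Id1 in cluster 7 (-0.85, SE 0.48). None of these 8 reached an unadjusted p of 0.05. Outside the members, and chosen after its values were seen, Pmepa1 in the fetal-like cluster 7 was at 120, 92.7 and 72.3 CPM in QCM and at 332, 353 and 169 CPM in SCM. Its log2 ratio there was 1.42 (SE 0.34, edgeR unadjusted p = 0.00175 and adjusted p = 0.813), and 1.59 with replicates 2 and 3 alone.

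Genes whose levels followed those of the members most closely over the 14 clusters with at least 100 nuclei were taken from 10964 genes with at least 1000 UMIs. The measure was Pearson's r of log2(CPM + 1), and the clusters share libraries, depth and base composition. Nearest to Tgfbr2 were Pvr (r = 0.964) and Wwc1 (0.951), to Tgfbr1 Tcte2 (0.955) and Ccar1 (0.954), and to Bmpr1a Gm49759 (0.962) and Ppp1r12a (0.960). Smad3 was nearest to Eif2ak2 (0.978) and Ankrd17 (0.961), Smad7 to Atrn (0.927) and Otud7b (0.927), Smad6 to 9230110F11Rik (0.859) and Abat (0.850), and Id1 to Gtse1 (0.899) and Cfdp1 (0.834). Tgfb2 and Id3 had too few UMIs to be included.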

How the data were processed

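Single-nucleus RNA-seq libraries of 3 QCM and 3 SCM samples were made by the authors with droplet chemistry for 3′ ends. The submitters' processing notes name Cell Ranger 2.1.1 and mm10. Per the methods of the study, the authors discarded nuclei that were outliers by quality measures before deposit. The deposited matrices hold UMI counts per gene and nucleus, and the deposited table of nuclei gives the cluster numbers. No nuclei were removed here. No doublet caller was run, and the 6% of nuclei with the most UMIs were left out as an alternative. Sample totals of 4071926 to 41035733 UMIs made SCM replicate 1 the least precise.

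Symbols were matched for 31258 of 31319 genes with GENCODE M21 (GRCm38). Counts were added up over the nuclei of a sample, and over those of each cluster in a sample with at least 10 nuclei and at least 2 samples per medium, in Python 3.11.15. They were tested with edgeR 4.0.16 in R 4.3.3 (quasi-likelihood test, TMM, filterByExpr with a minimum count of 10, Benjamini-Hochberg adjustment over all genes, or over all genes of all clusters, threshold 0.05). The test was run on simulated data whose changes were larger than the ratios of the members, which does not show how it performs at ratios of their size. Alternatives were DESeq2 1.42.0, voom with limma 3.58.1, library size alone, no low-count filter, the replicate number as a block, the ribosomal protein share as a covariate, replicates 2 and 3 alone, each sample left out and clusters weighted equally. Removal of the shared barcodes was added after seeing the data, as was leaving each sample out of the levels by cluster.

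The members, the pathway and marker lists and the tests were chosen with earlier results of these data known. Genes named were the members, the pathway gene with the most UMIs in each role, those with the smallest unadjusted p under 0.05 (up to 6) and, as genes whose values were seen first, Tgfb1, Bmp8b, Smad5 and Pmepa1 within cluster 7. For each member, the cluster with the smallest unadjusted p and the 2 genes most alike were named, except those most like Bmpr2, which are not reported here. Inha, Nog, Sostdc1 and Msx2 of the pathway list were not analysed here.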

Additional observations from a re-analysis of the deposited data

How the results depend on the processing

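The count of members called was 0 under all alternatives run, over all nuclei and within clusters, although leaving out the low-count filter gave 2984 calls, the replicate block 110 and DESeq2 6 among all genes within clusters. DESeq2 called 1 gene of the pathway list (Thbs1) in place of 0. Samples with the same number correlated in their deviations at 0.36, 0.46 and -0.09 for numbers 1, 2 and 3. Pairs of QCM and SCM samples with different numbers ran from -0.46 to 0.16. The methods of the study state no block, and the number was used as a block in an alternative alone. With the number as a block, 0 members and 0 pathway genes were called over all nuclei. Leaving out 1 sample each gave 0 calls in each case. Of the 10 members, 4 kept their highest cluster with 30 nuclei as the minimum and 5 with all samples summed, and 4 to 10 when 1 sample was left out (4 without SCM replicate 1).

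When the ribosomal protein share was a covariate, 4 members had estimates above 0, with Tgfb2 at -0.084, Bmpr1a at -0.19, Smad3 at -0.19 and Smad7 at -0.084, and also Bmp3 at -0.27, Smurf2 at -0.026, Acvr2a at -0.057, Cdkn2b at 0.12, Tgfb2 in cluster 2 at -0.11, Bmpr1a in cluster 4 at -0.034 and Id1 in cluster 7 at 0.50. With replicates 2 and 3 alone, Bmpr1a was at -0.079, Id1 at 0.0052, Bmp3 at -0.042, Cdkn2b at 0.13 and Id1 in cluster 7 at 0.087. Id1 in cluster 7 was at 0.22 without the 6% of nuclei with the most UMIs. Tgfb2 was at -0.15 with clusters weighted equally. Over the fits that each leave out 1 sample, Smad3 ran from 0.0054 to 0.55, Smad6 from 0.22 to 0.79, Smad7 from 0.086 to 0.57, Tgfbr1 from 0.098 to 0.47, Bmpr1a from -0.092 (without QCM replicate 1) to 0.18, Bmp3 from -0.13 to 0.25, Cdkn2b from -0.43 to 0.067, Tgfb2 in cluster 2 from -0.32 (without SCM replicate 2) to 0.98 and Id1 in cluster 7 from -1.17 to 0.0032 (without QCM replicate 1). Without the low-count filter, Pmepa1 in cluster 7 passed the test (1.43, edgeR adjusted p = 0.0017). The pathway genes with an unadjusted p under 0.05 and higher in SCM numbered 3 under the covariate (0.551% of all genes), 4 without the nuclei with the most UMIs (0.582%) and 3 without SCM replicate 2 (0.523%), in place of 7 (1.46%). They numbered 9 with library size alone (1.94%), the replicate block (1.82%, Smad6 among the 9), without QCM replicate 2 (3.08%) and without SCM replicate 1 (1.33%). Id3 was lower in SCM at that p under DESeq2, voom with limma, no low-count filter, without QCM replicate 3 and without SCM replicate 3. In these fits 4.92%, 1.49%, 3.24%, 2.74% and 4.55% of all genes were lower at that p. The cause of these differences was not tested. SCM replicate 1 had 430 nuclei, and its part in the precision within clusters was not tested.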
